A study of Homo sapiens with 12 samples.

Results

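The genes described here are 57 genes of the cell division cycle, measured by RNA-seq in A375, an established human line of metastatic melanoma. They were listed by name, with earlier results of these data known: 26 genes used in S phase (MCM2, MCM3, MCM4, MCM5, MCM6, MCM7, MCM10, PCNA, TYMS, RRM1, RRM2, FEN1, GINS2, UHRF1, CDC45, DTL, E2F1, E2F8, CCNE1, CCNE2, CDK2, CLSPN, POLA1, CHAF1B, SLBP and CDC6) and 31 used in G2 and mitosis (TOP2A, MKI67, CDK1, CCNA2, CCNB1, CCNB2, CDC20, CDC25C, BUB1, BUB1B, AURKA, AURKB, PLK1, TPX2, KIF11, KIF20A, KIF23, KIF2C, CENPE, CENPF, CENPA, NUSAP1, BIRC5, UBE2C, HMMR, TTK, NDC80, ANLN, DLGAP5, ECT2 and FOXM1). They are 57 of the 23705 genes counted, and all 57 were among the 13522 genes that passed the filter on low counts. Cells were kept in medium with 10% FBS and received, for 24 h, DMSO vehicle, 5 µM rosiglitazone (RGZ, an agonist of the nuclear receptor PPARγ), 2 µM T0070907 (an antagonist of the same receptor) or RGZ with T0070907. DMSO was present in every group at a final dilution of 1 in 10000. Each of the 4 conditions had 3 libraries, 1 from each of 3 independent experiments, and within an experiment the RNA of technical replicates of a condition had been pooled before sequencing. The antagonist arm was meant to separate effects of RGZ that pass through PPARγ from those that do not.

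A dividing cell copies its DNA in S phase and separates the copies in mitosis, and most genes for each task are transcribed shortly before they are needed. S-phase genes are switched on as cells leave G1, when E2F factors are released from pocket proteins. Genes of G2 and mitosis rise later, under MuvB complexes with B-MYB and FOXM1, and are held down in resting cells by the DREAM complex. In cultures that are not synchronised, as here, the level of such a gene in a library is an average over all phases. In bulk RNA, fewer cells in a phase and less RNA per cell cannot be told apart.

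The promoters of both lists carry different letters, which are shown here because they set S-phase genes apart from G2/M genes without any use of the counts. RefSeq promoter windows on GRCh38.p14, from 250 bases before to 50 after a start of transcription, were given for 21 of the 26 S-phase genes (29 windows) and 25 of the 31 G2/M genes (31 windows). An E2F site was searched as TTTCGCGC, TTTGGCGC, TTTCCCGC or TTTGCCGC, the cell-cycle homology region (CHR, the element bound by MuvB complexes) as TTTGAA or TTCGAA, and the CCAAT box (bound by NF-Y) as CCAAT, each on both strands. E2F letters were in 48.3% of S-phase windows, in 12.9% of G2/M windows and in 3.31% of all 35116 windows. CHR letters were in 71.0% of G2/M windows, in 6.90% of S-phase windows and in 16.4% of all windows. The CCAAT letters were frequent in both lists, at 72.4% and 74.2% against 34.6% of all windows. Windows holding CHR and CCAAT letters together made up 58.1% of G2/M windows, 6.90% of S-phase windows and 6.38% of all windows. Further cell-cycle genes that are not among the 57 were searched in the same way. E2F letters were in 33.3% of 45 windows of other S-phase genes (32 of 40 genes matched) and CHR letters in 70.0% of 60 windows of other G2/M genes (51 of 58 matched). CCAAT letters were in 44.4% of those other S-phase windows and in 71.7% of those other G2/M windows, and CHR with CCAAT letters in 2.22% and 55.0%. Of 25 windows of E2F, pocket protein and DREAM genes (16 of 18 matched), 20% held E2F letters, 32% CHR letters, 32% CCAAT letters and 4% both of the last. These matches are letters in a window and not measured binding, and a gene can have several windows that share sequence.

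The 150 bases just upstream of the start are printed for 4 S-phase genes, with the E2F letters of either strand in capitals. They are E2F1, which encodes the transcription factor itself, PCNA, the sliding clamp of the replication fork, TYMS, which makes thymidylate, and MCM6, a subunit of the replicative helicase.
E2F1, chr20:33686386-33686535, minus strand: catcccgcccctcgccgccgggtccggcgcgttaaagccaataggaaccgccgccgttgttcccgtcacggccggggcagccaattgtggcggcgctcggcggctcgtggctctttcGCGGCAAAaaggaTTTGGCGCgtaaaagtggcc
PCNA, chr20:5126623-5126772, minus strand: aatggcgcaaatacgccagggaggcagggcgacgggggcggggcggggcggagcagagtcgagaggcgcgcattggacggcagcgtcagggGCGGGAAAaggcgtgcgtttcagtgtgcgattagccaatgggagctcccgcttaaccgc
TYMS, chr18:657503-657652, plus strand: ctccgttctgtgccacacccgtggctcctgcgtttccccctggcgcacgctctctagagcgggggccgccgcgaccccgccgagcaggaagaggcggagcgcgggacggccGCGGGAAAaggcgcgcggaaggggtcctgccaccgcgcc
MCM6, chr2:135876444-135876593, minus strand: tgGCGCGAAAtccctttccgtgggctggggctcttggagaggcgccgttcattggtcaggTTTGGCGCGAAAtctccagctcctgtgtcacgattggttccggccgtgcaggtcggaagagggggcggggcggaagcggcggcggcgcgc
In E2F1 the sites began 33 and 20 bases before the start, and in MCM6 a pair of overlapping sites on opposite strands began 90 and 86 bases before it.

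The same stretch follows for 4 G2/M genes, with CHR and CCAAT letters of either strand in capitals. KIF11 encodes the kinesin that pushes spindle poles apart, MKI67 the Ki-67 protein that coats mitotic chromosomes, CCNB2 a B-type cyclin and PLK1 a kinase of mitotic entry.
KIF11, chr10:92592980-92593129, plus strand: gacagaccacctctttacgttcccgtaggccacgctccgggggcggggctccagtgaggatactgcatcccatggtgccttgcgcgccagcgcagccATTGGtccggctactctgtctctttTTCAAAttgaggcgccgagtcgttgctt
MKI67, chr10:128126424-128126573, minus strand: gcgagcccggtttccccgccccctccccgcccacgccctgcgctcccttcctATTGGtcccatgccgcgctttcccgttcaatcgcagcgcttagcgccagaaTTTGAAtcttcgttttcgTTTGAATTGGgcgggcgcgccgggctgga
CCNB2, chr15:59104996-59105145, plus strand: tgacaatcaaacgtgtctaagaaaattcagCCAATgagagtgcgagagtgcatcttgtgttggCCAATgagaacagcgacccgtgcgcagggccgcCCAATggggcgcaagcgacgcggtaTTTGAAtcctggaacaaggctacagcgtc
PLK1, chr16:23678739-23678888, plus strand: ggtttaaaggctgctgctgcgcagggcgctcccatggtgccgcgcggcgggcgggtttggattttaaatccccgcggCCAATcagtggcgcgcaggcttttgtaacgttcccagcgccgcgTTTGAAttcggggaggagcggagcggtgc
The CHR letters nearest to the start began 28 bases before it in KIF11 and 29 bases before it in MKI67, CCNB2 and PLK1, and each of the 4 had CCAAT letters further upstream. In MKI67 a second CCAAT match overlapped the CHR letters. CENPF, a kinetochore protein described below, had CCAAT letters 94, 58 and 33 bases before its start and its CHR letters only after it.

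Library totals were 8319455 to 8687191 counts for vehicle, 9001174 to 10096418 for RGZ, 8524144 to 11375227 for T0070907 and 8426908 to 9471903 for the combination. The melanocyte lineage factor SOX10 stood at a mean of 310.6 CPM in vehicle (CPM are counts scaled to a common library size) and MITF at 45.9 CPM, while TYR had 0 counts in every library, and MLANA, DCT and TYRP1 stayed at or below 13 counts. Of 8 melanocyte lineage genes, 4 passed the filter, with summed levels of 281 to 498 CPM in vehicle, 229 to 422 with RGZ, 327 to 531 with T0070907 and 289 to 477 with the combination. Of 5 keratinocyte and epithelial genes, 2 passed, with sums of 14.6 to 33.5, 6.62 to 16.8, 21.4 to 37.5 and 13.4 to 30.6 CPM in the same order, and KRT1 was at 0 counts throughout. Of 4 leukocyte genes, 2 passed, with sums of 36.1 to 74.6, 50.3 to 97.6, 34.3 to 69.4 and 40.9 to 72.1 CPM, nearly all from CD68 (49.6 CPM in vehicle), with CD3E and PTPRC at or below 2 counts. Of 3 endothelial genes, 1 passed, and their sum never exceeded 2.50 CPM.

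Both lists were abundant in these cells. Compared per length, as CPM per kilobase of the longest transcript in vehicle, the median S-phase gene stood at 35.3 and the median G2/M gene at 55.1, against 7.81 for all tested genes with a length. On this scale 25 of 26 S-phase genes and 31 of 31 G2/M genes lay above the median gene. The highest were UBE2C at 251, the ubiquitin-conjugating enzyme of the anaphase-promoting complex, PCNA at 218, MCM7 at 213, another helicase subunit, and CCNB1 at 209, the main cyclin of mitotic entry. The lowest were E2F8 at 4.56, a repressing E2F, and CHAF1B at 8.24, a histone chaperone of the fork. Counts behind each library's value ran from 89 to 7771 for S-phase genes and from 170 to 6831 for G2/M genes, so none was limited by a count near 0.

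In the test of conditions alone, without the experiment in the model, none of the 57 genes was called in any comparison. The quasi-likelihood test of edgeR, with p-values adjusted by Benjamini-Hochberg over 13522 genes, called 0 members for RGZ against vehicle (1.24% of all genes called), for T0070907 against vehicle (0.0074%), for the combination against vehicle (0%), against RGZ (1.24%) and against T0070907 (0.037%), and for the interaction of both agents (0%). At an unadjusted p under 0.05 the members counted 3 of 57 for RGZ (5.26%, against 10.5% of all genes) and 7 for the combination against vehicle (12.3%, against 10.6%). They counted 0 for T0070907 (3.10% of all genes), 1 for the combination against RGZ (13.1%), 6 against T0070907 (15.0%) and 0 for the interaction (3.00%). DESeq2 and limma-voom, fitted the same way, also called 0 members in each of these comparisons. Because libraries of 1 experiment resembled each other, a fit with the experiment as a block was made beside it, and calls below marked as blocked come from that fit. It called 3 members for RGZ against vehicle (9.3% of all genes called), 0 for T0070907 (0.91%), 0 for the combination against vehicle (0%), 2 for the combination against RGZ (11.4%), 4 against T0070907 (8.76%) and 0 for the interaction (0.281%). With all 12 libraries, the share of members called was below or at that of all genes in every comparison of both fits. In some blocked fits that left out 1 library, given below, the share of members was higher than that of all genes. For RGZ, the 95% interval of the log2 fold change lay within ±0.5 for all 57 members in the blocked fit and for 53 of 57 without the block.

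E2F1, the activating factor at the top of the S-phase programme, was the member that rose with RGZ in the blocked fit. Its level was 88.8, 80.2 and 93.4 CPM in vehicle in experiments 1, 2 and 3, and 111, 94.2 and 128 CPM with RGZ. All 3 RGZ libraries lay above all 3 vehicle libraries, as was found for 9.20% of all tested genes. With T0070907 alone it was 80.7, 68.9 and 80.2 CPM, and with the combination 104, 70.7 and 104 CPM, so that the combination overlapped every other group. The log2 fold change for RGZ was 0.34 (SE 0.08, edgeR blocked adjusted p = 0.00671), and without the block it was 0.34 (SE 0.15, adjusted p = 0.435). Leaving out RGZ of experiment 3 or vehicle of experiment 3 raised the blocked adjusted p to 0.0738 and 0.0718, with log2 fold changes of 0.29 and 0.31. The combination was below RGZ by a log2 fold change of -0.26 (SE 0.07, edgeR blocked adjusted p = 0.0295) and above T0070907 by 0.27 (SE 0.08, adjusted p = 0.0393). The comparison with RGZ uses the same RGZ libraries as that of RGZ against vehicle. Of 6 fits that left out 1 library, the call against RGZ held only without the combination of experiment 1 (adjusted p = 0.00134, 0.0511 to 0.195 in the others). The call against T0070907 held only without the combination of experiment 2 (adjusted p = 9.81e-04, up to 0.164 in the others, edgeR). T0070907 against vehicle gave -0.19 (SE 0.08, adjusted p = 0.389), and the interaction of both agents gave -0.07 (SE 0.11, adjusted p = 0.874).

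The other E2F and cyclin E genes did not follow E2F1 past the test. CCNE2, a cyclin partner of CDK2, was 49.4, 33.8 and 46.1 CPM in vehicle and 40.4, 30.0 and 38.9 CPM with RGZ, lower in all 3 experiments, with a log2 fold change of -0.24 (SE 0.08, edgeR blocked adjusted p = 0.0885). CCNE1 gave 0.10, CDK2, the S-phase kinase and the most abundant member of this group, 0.07, and E2F8 -0.09, none past the test. CDK2 ranged only from 140 to 176 CPM over the 12 libraries. CHAF1B, at 38.9, 35.9 and 35.9 CPM in vehicle, was 30.4, 30.8 and 33.7 CPM with RGZ, so its groups did not overlap, and its adjusted p was 0.133. Ranges lower with RGZ than in vehicle without overlap were found in 7.57% of all genes.

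Helicase and synthesis genes stayed close to vehicle under RGZ. Among 10 helicase and loading genes, the median log2 fold change was -0.02, with a range of -0.07 to 0.05. MCM7, the most abundant of them, was 669, 643 and 663 CPM in vehicle and 681, 611 and 641 CPM with RGZ, with overlapping groups (log2 fold change -0.03, interval -0.14 to 0.08 in the blocked fit). Among 6 synthesis and nucleotide genes, the median was -0.00, with a range of -0.08 to 0.06. RRM2, the regulated subunit of ribonucleotide reductase, was 513, 425 and 486 CPM in vehicle and 531, 442 and 506 CPM with RGZ, a log2 fold change of 0.06 (interval -0.05 to 0.16). The 5 chromatin and fork checkpoint genes were all negative, with a median of -0.05 and a range of -0.22 to -0.04, none past the test. CHAF1B, given above, was the lowest of them. DTL, which directs CDT1 to degradation, was 138, 114 and 125 CPM in vehicle and 121, 107 and 115 CPM with RGZ, lower in each experiment with overlapping groups (log2 fold change -0.14, SE 0.06, edgeR blocked adjusted p = 0.162). SLBP, which binds the stem-loop of histone mRNA, gave -0.04 (interval -0.15 to 0.07).

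**Figure D1:**
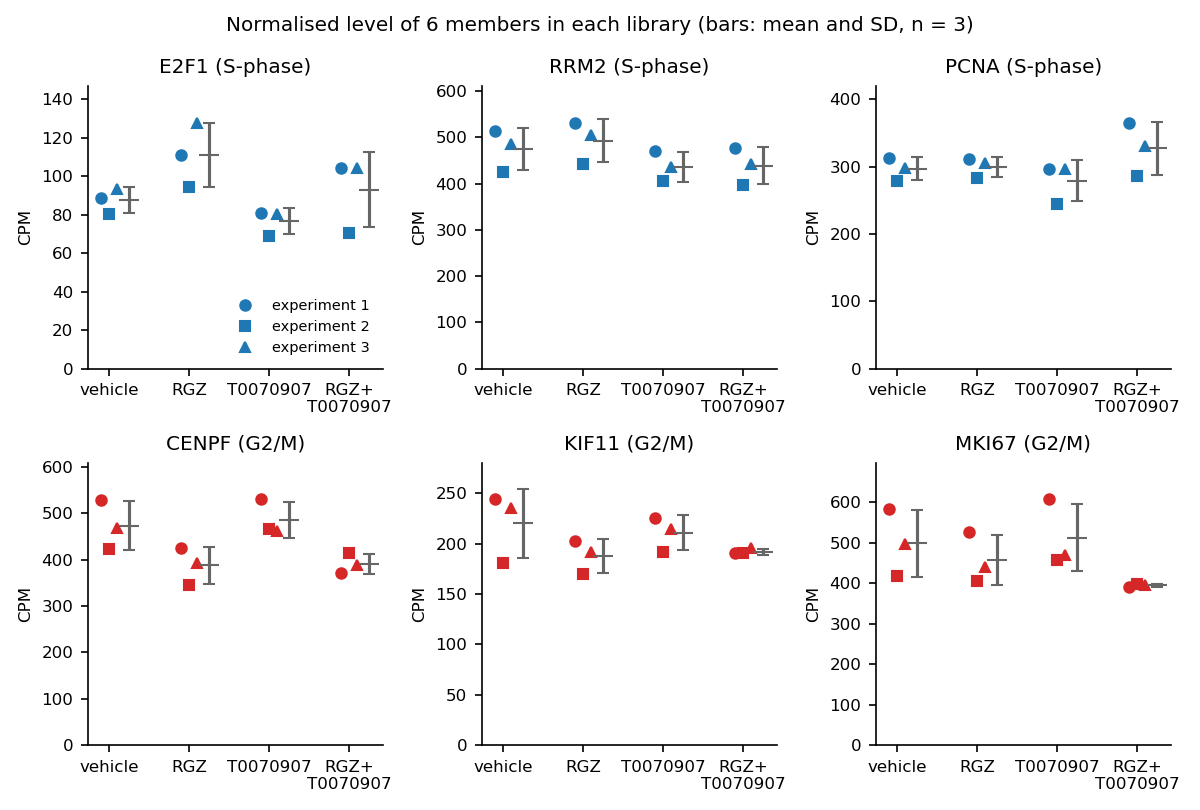
CPM of 6 members (y axis, from 0) in each of the 12 libraries by condition (x axis), with a marker shape per experiment and the mean and SD of 3 libraries as a grey bar. RGZ libraries of E2F1 sit above all vehicle libraries, whereas CENPF, KIF11 and RRM2 overlap between RGZ and vehicle, and MKI67 is lowest and least spread with the combination, at 389 to 397 CPM.

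Among G2/M genes, CENPF and KIF11 fell with RGZ in the blocked fit. CENPF, a large protein of the kinetochore, was 528, 423 and 469 CPM in vehicle and 424, 345 and 393 CPM with RGZ. It was lower within each experiment by 0.32, 0.29 and 0.25 on the log2 scale, although RGZ of experiment 1 just overlapped vehicle of experiment 2. The log2 fold change was -0.29 (SE 0.07, edgeR blocked adjusted p = 0.0157), and without the block -0.29 (SE 0.10, adjusted p = 0.269). Leaving out RGZ of experiment 2, vehicle of experiment 1 or vehicle of experiment 3 ended the blocked call, at adjusted p = 0.134, 0.120 and 0.0925. KIF11 was 244, 181 and 235 CPM in vehicle and 202, 170 and 191 CPM with RGZ, lower in each experiment with overlapping groups. Its log2 fold change was -0.22 (SE 0.07, edgeR blocked adjusted p = 0.0393), and it kept a call in 1 of 6 fits that left out a library, that without vehicle of experiment 2 (adjusted p = 0.00545, and 0.105 to 0.241 in the others). With the combination, CENPF was 370, 414 and 388 CPM and KIF11 190, 190 and 195 CPM. With all libraries, neither gene was called in the blocked fit for the combination against RGZ or against vehicle.

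Over the whole list, CENPF and KIF11 included, most values for RGZ were negative, and no other G2/M gene was called. Of 31 G2/M genes, 26 had a negative log2 fold change for RGZ and 20 were lower than vehicle in all 3 experiments, against 25.7% of all tested genes. The median was -0.09, a difference of -6.08%, beside -0.02 over the S-phase genes and -0.01 over all genes. All 7 kinesin and spindle genes and all 4 cytokinesis and chromosome structure genes were negative, with medians of -0.11 and -0.13. Negative values were also found in 8 of 9 genes of mitotic entry (median -0.09), 4 of 6 kinetochore and passenger genes (-0.05) and 3 of 5 genes of the spindle checkpoint and mitotic exit (-0.03). TOP2A, the topoisomerase that untangles sister chromatids, was 666, 586 and 589 CPM in vehicle and 596, 544 and 543 CPM with RGZ (log2 fold change -0.13, SE 0.07, blocked adjusted p = 0.268). CCNB1 was 470, 451 and 437 CPM against 448, 432 and 432 CPM (-0.05), and KIF2C, a kinesin that shortens microtubules, gave -0.02. CDC20, the activator of the anaphase-promoting complex, pointed the other way in every experiment, from 343, 350 and 309 CPM in vehicle to 379, 368 and 323 CPM with RGZ (log2 fold change 0.09, SE 0.06, adjusted p = 0.407). FOXM1, a factor that drives this list, gave -0.10 (SE 0.05, adjusted p = 0.275). The groups did not overlap for 2 of 31 genes, NUSAP1 and TTK, both lower, against 7.57% of all genes.

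**Figure D2:**
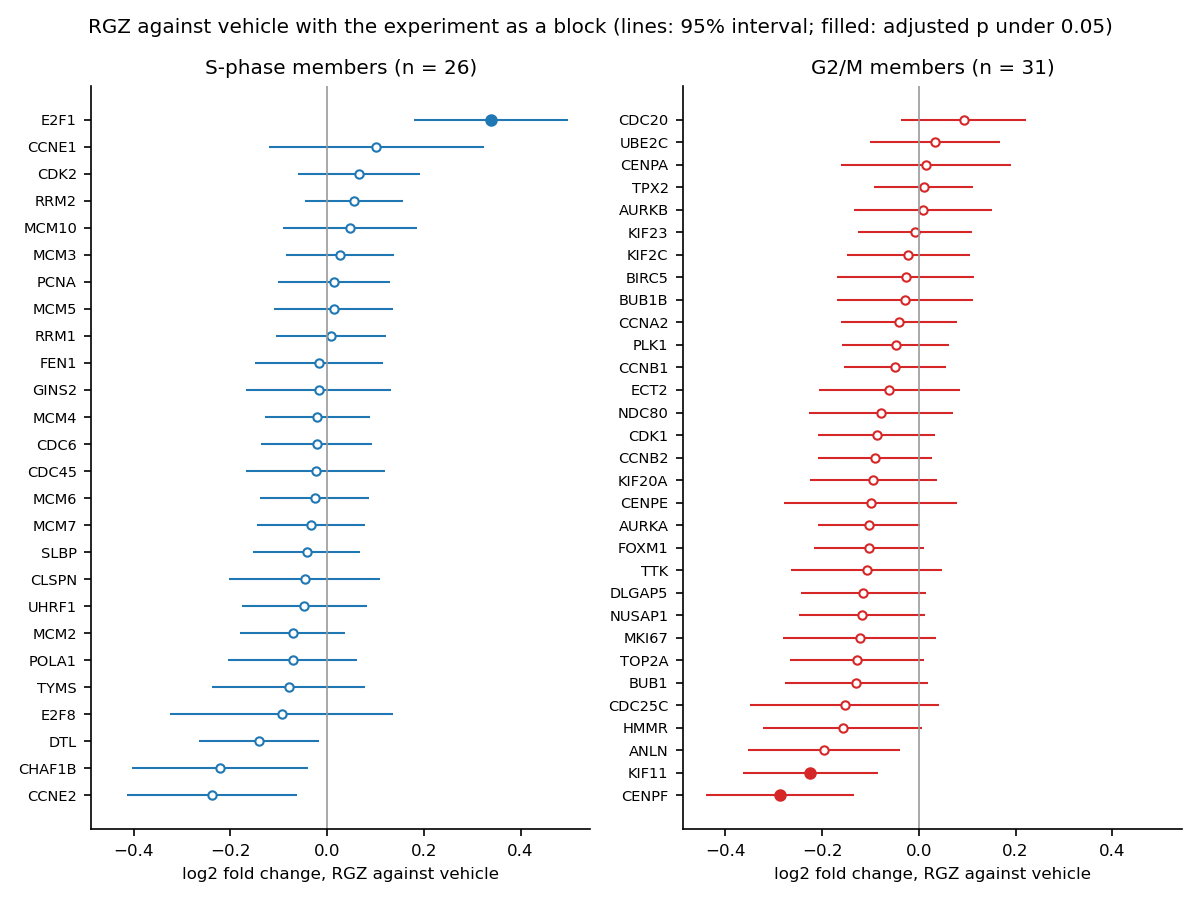
Log2 fold change of RGZ against vehicle (x axis) for each S-phase gene (left) and G2/M gene (right), sorted by value, with the 95% interval of the fit that has the experiment as a block. Filled points passed the adjusted p of 0.05: E2F1 above 0, CENPF and KIF11 below 0, and 26 of 31 G2/M points lie left of 0.

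Transcript length moved with these differences, and its part in them was not tested. Across 13305 genes with a length, Spearman's rho between the RGZ log2 fold change and the longest transcript was -0.20, and across the 57 members -0.36. Genes share libraries, so these are descriptions without a p. CENPF has a transcript of 10307 bases and KIF11 of 4860, against a median of 3102 over G2/M genes, while CDC20 has 1777 and UBE2C 914. When each library was corrected for length by a smooth curve, in an analysis added after the data had been seen, E2F1 (0.33, edgeR adjusted p = 0.00113), CENPF (-0.19, adjusted p = 0.00515) and KIF11 (-0.18, adjusted p = 0.0267) stayed called with the block. The median over G2/M genes was then -0.07 and over S-phase genes -0.01.

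T0070907 alone left both lists near vehicle. The median log2 fold change was -0.03 over S-phase genes and -0.01 over G2/M genes, all 57 blocked intervals lay within ±0.5, and the lowest adjusted p was 0.389, for E2F1. MKI67 was 607, 457 and 470 CPM with T0070907 and 582, 417 and 497 CPM in vehicle, with overlapping groups. PCNA was 297, 244 and 297 CPM against 313, 279 and 299 CPM.

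With the combination, long transcripts were low and short ones high against vehicle in 2 of the 3 experiments. Spearman's rho of the log2 fold change against vehicle with transcript length was -0.49 over all genes and -0.70 over the members. Within experiments 1, 2 and 3 it was -0.51, 0.05 and -0.42 over all genes, so experiment 2 differed from the other experiments in this comparison. Both libraries compared there differed from their own group. Against the mean of all 12 libraries, rho in experiments 1, 2 and 3 was -0.46, -0.06 and -0.29 for the combination and 0.38, -0.12 and 0.23 for vehicle. Against the vehicle of the same experiment, rho was -0.05, 0.25 and -0.18 for T0070907 and -0.21, -0.08 and -0.19 for RGZ. Between the combination and T0070907 it was -0.52, -0.21 and -0.29, with experiment 2 near experiment 3. Members of under 2 kb had a median of 0.11 and the 3 members over 8 kb, MKI67, CENPF and CENPE, of -0.27, beside 0.15 and -0.17 over all genes of those lengths. MKI67, whose transcript of 12678 bases is the longest of the 57, was 389, 397 and 395 CPM with the combination. MKI67 thereby lay below all vehicle libraries, as did 6.57% of all genes. Its log2 fold change against vehicle was -0.32 (SE 0.08, edgeR blocked adjusted p = 0.0989), the lowest adjusted p of any member in that comparison. With the length correction it was -0.14 (adjusted p = 0.163).

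**Figure D3:**
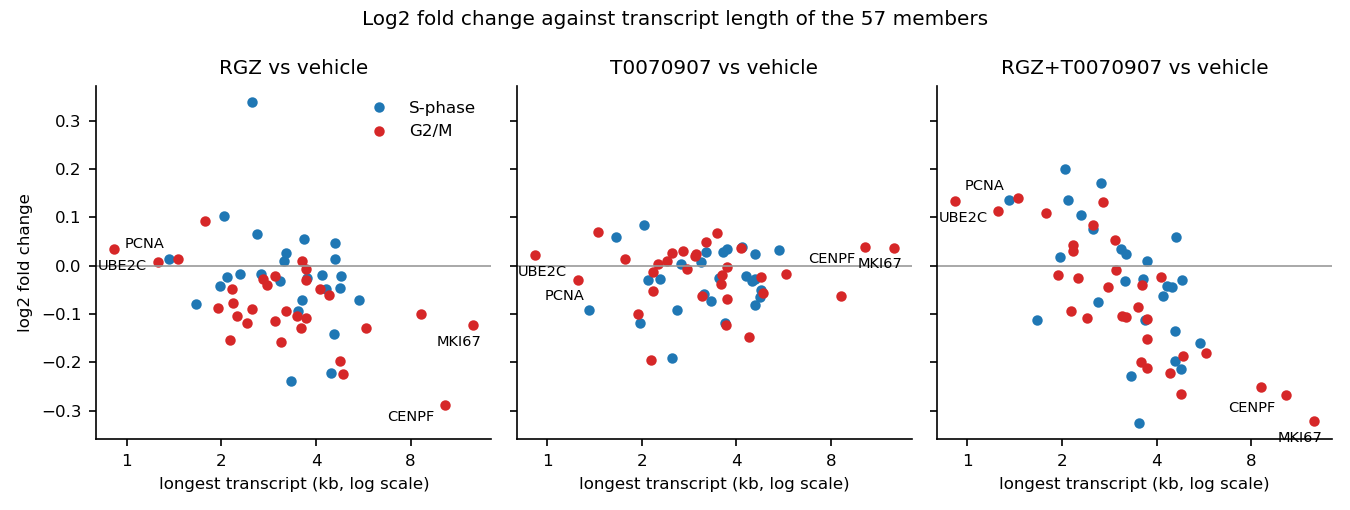
Log2 fold change against vehicle in the blocked fit (y axis) by length of the longest transcript (x axis, kb, log scale) for the 57 members under RGZ, T0070907 and the combination, S-phase genes in blue and G2/M genes in red. The points fall from left to right with the combination (rho -0.70), less so with RGZ (-0.36) and not with T0070907 (0.01).

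Without the combination library of experiment 2, the blocked fit of the combination against vehicle called 22 members instead of 0, when 19% of all genes were called. They were 6 of 26 S-phase genes, 3 higher and 3 lower, and 16 of 31 G2/M genes, 4 higher and 12 lower. The 7 higher genes had transcripts of 914 to 2711 bases and the 15 lower ones of 2409 to 12678 bases. Leaving out vehicle of experiment 2 instead gave 8 members, 1 S-phase and 7 G2/M genes, all lower, when 6.38% of all genes were called. Without the combination library of experiment 2, 11 members were called against RGZ (18.9% of all genes) and 20 against T0070907 (24.5%). With the length correction and the combination library of experiment 2 still left out, the counts were 11 against vehicle (7.92% of all genes), 10 against RGZ (16%) and 10 against T0070907 (14%). With the length correction and all libraries, 0 members were called against vehicle (0.0518% of all genes). In the corrected fit against vehicle without the combination library of experiment 2, all 9 called G2/M genes were lower. ANLN, an actin-binding protein of the cleavage furrow, gave -0.28 (adjusted p = 0.00401), NUSAP1, a spindle protein, -0.27 (adjusted p = 0.00358), and BUB1B, a kinase of the spindle checkpoint, -0.25 (adjusted p = 0.0111, all edgeR).

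In the comparisons of the combination with either agent alone, all libraries included, 2 and 4 members passed in the blocked fit. These comparisons share the combination libraries with each other. Against RGZ they were E2F1, given above, and RRM2, which was 477, 397 and 443 CPM with the combination and 531, 442 and 506 CPM with RGZ, lower in each experiment with overlapping groups (log2 fold change -0.17, SE 0.05, edgeR blocked adjusted p = 0.0306). RRM2 lost the call without any of the RGZ libraries (adjusted p of 0.0715 to 0.153) or without the combination of experiment 3 (0.116). Against T0070907 they were E2F1, PCNA, MKI67 and CENPF. PCNA was 365, 286 and 330 CPM with the combination, higher within each experiment and overlapping T0070907 (log2 fold change 0.23, SE 0.06, edgeR blocked adjusted p = 0.0218). MKI67 gave -0.36 (SE 0.08, adjusted p = 0.0107), and all 3 combination libraries lay below all T0070907 libraries. CENPF was 370, 414 and 388 CPM with the combination and 530, 466 and 461 CPM with T0070907, again without overlap (log2 fold change -0.31, SE 0.07, adjusted p = 0.0187). Non-overlapping ranges lower in the combination than in T0070907 were found in 9.72% of all genes. Each of these 3 calls was lost without the combination of experiment 3, without T0070907 of experiment 1 or without T0070907 of experiment 2, with adjusted p from 0.0616 to 0.154. With the length correction E2F1 (0.22, adjusted p = 0.0451) and MKI67 (-0.16, adjusted p = 0.0318) stayed called, whereas PCNA (0.08, adjusted p = 0.268) and CENPF (-0.13, adjusted p = 0.0844) did not. TYMS was called in addition (-0.28, edgeR adjusted p = 0.0177). Against RGZ the corrected fit kept E2F1 (-0.30) and RRM2 (-0.17). It also called MCM10 (-0.17), CDK2 (-0.17) and BUB1B (-0.18), with edgeR adjusted p of 0.0455, 0.0406 and 0.0423.

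The level of each list in a library, taken as the mean log2 CPM of its members, varied more between experiments than between conditions for the S-phase genes. In experiments 1, 2 and 3 it was 7.06, 6.84 and 6.99 for vehicle libraries and 7.03, 6.84 and 6.97 for RGZ libraries. T0070907 libraries had 7.04, 6.85 and 6.93, and combination libraries 7.04, 6.81 and 6.95. Experiment 2 was the lowest and experiment 1 the highest in every condition. For the G2/M genes the same order of experiments gave 7.50, 7.37 and 7.36 for vehicle and 7.39, 7.29 and 7.30 for RGZ. It gave 7.48, 7.37 and 7.32 for T0070907 and 7.38, 7.36 and 7.27 for the combination, with experiment 1 the highest in every condition. The difference of the G2/M mean from the S-phase mean, on the log2 scale, changed from vehicle to RGZ by -0.071, -0.071 and -0.039 in the 3 experiments. From vehicle to T0070907 it changed by 0.0063, -0.0018 and 0.027, and from vehicle to the combination by -0.094, 0.017 and -0.042. With medians over the genes in place of means, the average change was 0.024 for RGZ, -0.015 for T0070907 and 0.083 for the combination, against -0.060, 0.010 and -0.040 with means, so the sign depends on that choice in all 3 comparisons.

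**Figure D4:**
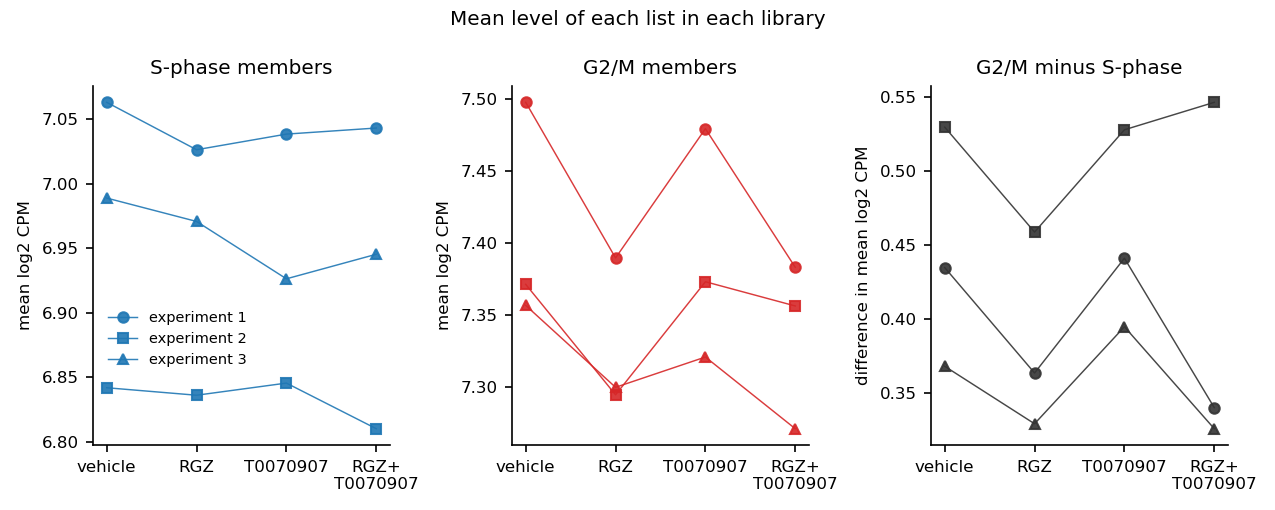
Mean log2 CPM (y axis) of the 26 S-phase genes (left) and the 31 G2/M genes (middle) and the G2/M mean minus the S-phase mean (right) in each library by condition (x axis), with libraries of 1 experiment joined by a line. The lines of the S-phase panel stay in the order of experiments 1, 3 and 2 across the conditions, and the y axes do not start at 0.

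Most S-phase genes differed between experiments. edgeR's test of the experiment, with condition in the model, called 17 of 26 S-phase genes (65.4%) and 8 of 31 G2/M genes (25.8%), when 30.5% of all genes were called. These counts moved when 1 library was left out. Without the combination of experiment 1 they were 20 S-phase and 18 G2/M genes (42.9% of all genes called), and without the combination of experiment 2 they were 20 and 19 (34.9%). Without any 1 of the other 10 libraries they were 12 to 17 and 5 to 8, when 22.8% to 26.9% of all genes were called. With all libraries, all 17 S-phase genes were lower in experiment 2 than in experiment 1, also in each of the 4 conditions taken singly. The median over the S-phase genes was -0.18 on the log2 scale for experiment 2 against 1, a difference of -11.5%, and -0.09 for experiment 3 against 1. E2F8 differed most, at 14.5 to 19.5 CPM in experiment 1, 9.36 to 12.9 in experiment 2 and 14.6 to 18.2 in experiment 3, with no overlap between experiments 1 and 2 (-0.60, adjusted p = 2.46e-04). CCNE2 gave -0.38 (adjusted p = 0.00191), MCM10, a factor that helps to start the helicase, -0.37 (adjusted p = 2.24e-04), and TYMS -0.37 (adjusted p = 3.21e-04). The calls took in 7 of 10 helicase and loading genes, 4 of 6 synthesis genes, 3 of 5 chromatin and checkpoint genes and 3 of 5 E2F and cyclin E genes. E2F1 itself was 18.3% lower in experiment 2 than in 1 (log2 difference -0.29) and 0.07 higher on the log2 scale in experiment 3 than in 1. CDK2 was the exception among the S-phase genes, higher in experiment 2 than in 1 by 0.06, not past the test.

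Among the G2/M genes the called ones were MKI67, CCNA2, CDC20, PLK1, TPX2, KIF11, ECT2 and FOXM1. Of these, MKI67 and KIF11 were lowest in experiment 2 (-0.31 and -0.23 against experiment 1), and the other 6 were lowest in experiment 3. CDC20 was 343 to 426 CPM in experiment 1, 341 to 368 in experiment 2 and 303 to 323 in experiment 3 (-0.26 for experiment 3 against 1, adjusted p = 0.00278). None of 6 kinetochore and passenger genes was called. Lists of cell-cycle genes outside the 57 were called at shares near the background, with 10 of 40 other S-phase genes (25%), 16 of 58 other G2/M genes (27.6%) and 5 of 18 E2F, pocket protein and DREAM genes (27.8%). Most genes of these lists were still lower in experiment 2 than in 1, at 38 of 40, 50 of 58 and 14 of 18. Their medians for experiment 2 against 1 were -0.13, -0.09 and -0.13 on the log2 scale, beside -0.0053 over all genes. As a share of the sum of squares of log2 CPM over the 12 libraries, experiment took a median of 62.0% and condition 23.8% in the S-phase genes, 35.0% and 38.9% in the G2/M genes, and 27.7% and 34.4% in all tested genes. These shares are not adjusted for there being 3 experiments and 4 conditions, so noise alone would give condition the larger share. The labels give no more than the number of each experiment, so passage, density and handling cannot be told apart from it.

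**Figure D5:**
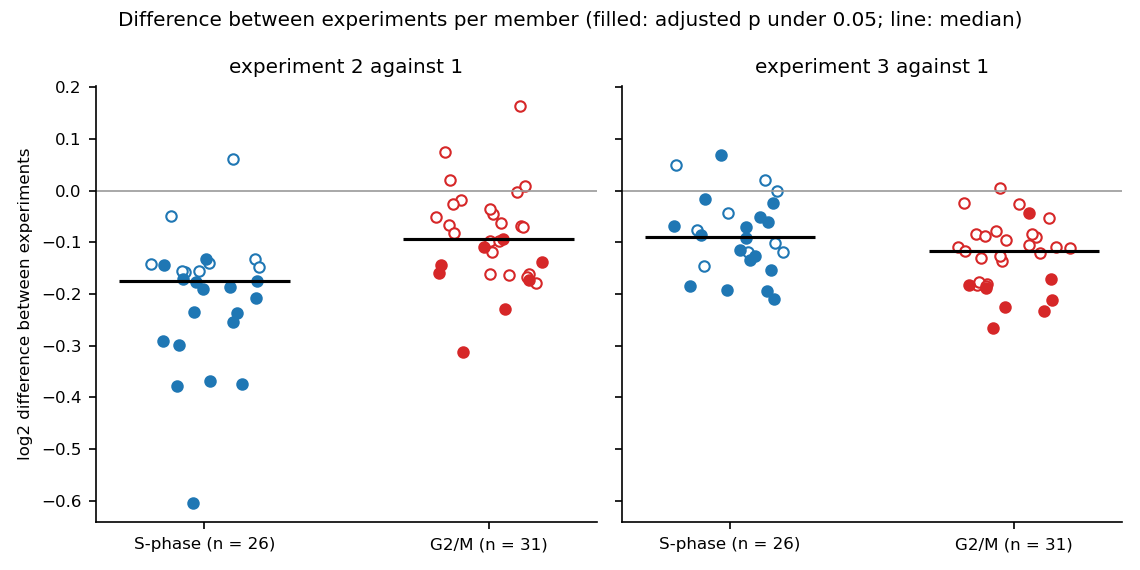
Log2 difference of experiment 2 (left) and experiment 3 (right) from experiment 1 (y axis) for each S-phase and G2/M gene, from the fit with condition and experiment, with the median of each list as a line and genes past the adjusted p of 0.05 filled. The S-phase median for experiment 2 is -0.18 and that of the G2/M genes -0.09, and E2F8 is the lowest point at -0.60.

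Further members of the same pathways were tested as lists outside the 57, and their counts for RGZ stand against 9.3% of all genes called with the block. For RGZ in the blocked fit, 1 of 40 other S-phase genes passed, ASF1B, a histone chaperone, lower by a log2 fold change of -0.24 (SE 0.07, edgeR adjusted p = 0.0334), and 0 of 58 other G2/M genes passed, with 29 of 58 lower in all 3 experiments and a median of -0.08. Among 18 E2F, pocket protein and DREAM genes 2 passed, both of the MYB family. MYBL2, which encodes the B-MYB partner of MuvB, was higher by 0.47 (SE 0.07, edgeR adjusted p = 1.67e-04) and by 0.47, 0.62 and 0.31 within the 3 experiments, without overlap of the groups. Without the block its adjusted p was 0.0541 with edgeR and 0.00135 with DESeq2. Of the 3 genes, MYBL2 alone kept its blocked call in all 6 fits that left out 1 library (adjusted p of 3.53e-04 to 0.00251). MYBL1, or A-MYB, was lower, with a log2 fold change of -0.46 (SE 0.12, edgeR adjusted p = 0.0176) and no overlap. Ranges without overlap were higher with RGZ than in vehicle for 9.20% of all genes and lower for 7.57%. MYBL1 kept its call only without RGZ of experiment 3 or vehicle of experiment 2 (0.0541 to 0.147 in the other 4 fits). ASF1B kept its call only without RGZ of experiment 3 or vehicle of experiment 1 (0.0912 to 0.242 in the others). Without the block the adjusted p was 0.297 for MYBL1 and 0.227 for ASF1B. With the combination MYBL2 was below RGZ, with a log2 fold change of -0.46 (SE 0.07, edgeR blocked adjusted p = 2.22e-04), lower in each of the 3 experiments. This comparison shares the RGZ libraries with that of RGZ against vehicle, so the 2 values are not independent. The numbers called in the other S-phase, other G2/M and E2F lists were 2 of 40, 2 of 58 and 1 of 18 for the combination against RGZ (11.4% of all genes). They were 3 of 40, 9 of 58 and 1 of 18 against T0070907 (8.76%), and 0 in each list for T0070907 or the combination against vehicle.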

How the data were processed

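RNA-seq libraries (TruSeq RNA kit, Illumina sequencing, per the labels) of A375 cells were analysed as raw counts per Entrez gene deposited by the authors, with 12 columns mapped by name to conditions and experiments. The submitters' processing notes name the build hg19. The aligner, counter, annotation and strand setting are not given in the sources used here, and reads of near-identical or antisense genes may therefore be shared. Gene numbers were named through the reference tables (23538 of 23705 matched), and lengths are those of the longest transcript in GENCODE release 29.

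Counts were filtered with filterByExpr, scaled by TMM and tested with edgeR 4.0.16 (quasi-likelihood, R 4.3.3) over all 12 libraries, with limma 3.58.1 (voom) and DESeq2 1.42.0 as alternatives. Adjusted p-values are Benjamini-Hochberg values over all tested genes, calls use 0.05, and SE is the log2 fold change divided by the root of F. CPM values use TMM, log2 CPM a prior count of 2. The procedure was tested on simulated data. The experiment number pairs libraries across conditions, since the labels give it and the design describes independent experiments. Deviations from condition means correlated with a mean r of 0.55 between libraries of 1 experiment (17 of 18 pairs over 0.1) and -0.27 otherwise. The p-values without the block include the spread between experiments.

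Members and lists were chosen with earlier results of these data known. Named genes are the most abundant member of each role group, called members with the largest changes (up to 4 a list for RGZ, 2 for other comparisons), called members moving against their list, and up to 3 called genes of each outside list. CCNE1, CCNE2, E2F8, CHAF1B, DTL, FOXM1, UBE2C, CENPE, ANLN, NUSAP1, BUB1B, TTK, MCM6, MCM10, CCNB2 and TYMS, and the 8 G2/M genes called between experiments, were named after their values were seen.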

Additional observations from a re-analysis of the deposited data

How the results depend on the processing

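The fit with the replicate block called 3 members for RGZ against vehicle, 2 for the combination against RGZ and 4 against T0070907, where the fit without it called 0. It changed no other count of called members. With the block, GC correction gave 3, 3 and 7 (11.3%, 13.2% and 13.6% of all genes called), thinning to the smallest total 3, 1 and 5 (8.85%, 10.6% and 8.16%), and the length correction, chosen after seeing the data, 3, 5 and 3 (12.3%, 14.5% and 7.4%). Leaving out 1 library without the block gave 0 members in every comparison of conditions. With the block it gave 0 to 4 for RGZ, 0 to 11 for the combination against RGZ, 0 to 20 against T0070907, 0 to 22 against vehicle (8 without vehicle of experiment 2) and 0 for T0070907 and the interaction. Without the combination of experiment 2 and with length correction it gave 11 against vehicle, 10 against RGZ and 10 against T0070907. The test of the experiment called 25 members, 16 at an adjusted p under 0.01 and 18 to 39 without 1 library, the most without the combination of experiment 2.

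The median over S-phase genes for the combination against RGZ was -0.0042 with GC correction, -0.0084 after thinning and -0.024 with length correction. The G2/M minus S-phase change with medians over genes was 0.024, 0.083 and -0.015 for RGZ, the combination and T0070907. Without 1 library and without the block, S-phase and G2/M medians ranged for RGZ from -0.072 to 0.022 and -0.11 to -0.038, for T0070907 from -0.081 to 0.029 and -0.057 to 0.036, for the combination from -0.061 to 0.018 and -0.107 to -0.0097, and for the combination against RGZ from -0.064 to 0.065 and -0.013 to 0.061. With the block they ranged from -0.034 to -0.017 and -0.106 to -0.068 for RGZ, from -0.046 to -0.012 and -0.025 to 0.0049 for T0070907, from -0.047 to -0.010 and -0.074 to -0.052 for the combination, and from -0.022 to 0.028 and -0.033 to 0.037 for the combination against RGZ. Blocked values between -0.0095 and -0.012 for S-phase genes in the last comparison came without the combination of experiment 1 or 2. With that of experiment 2 left out and the length corrected, the medians were -0.016 and -0.13 against vehicle and -0.035 and -0.051 against RGZ.

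Near 0, and never called, RGZ values changed sign without 1 library for KIF2C (-0.066 to 0.012, and up to 0.018 and 0.013 with the block), MCM7 (-0.073 to 0.0074, and up to 0.0078 with the block), RRM2 (-0.019 to 0.13) and SLBP (-0.081 to 0.0070). Without the block, other scalings, tools and filters changed the call of no member. They changed that of MYBL2, which passed with DESeq2, with no filter on low counts or with only the groups compared. With 3 libraries a condition the members' blocked RGZ standard errors had a median of 0.063 on the log2 scale, and a change such as that of CCNE2 did not pass.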
